A study of Mus musculus with 13 samples.

Results

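Cytochrome P450 enzymes are heme proteins that insert oxygen into small molecules, taking electrons from a reductase partner. In liver, families 1 to 3 mainly oxidise foreign compounds and steroids, family 4 mainly oxidises fatty acids and eicosanoids, and the remaining families carry out set steps of steroid, sterol, retinoid and vitamin D metabolism. Many of these genes are switched on by ligand-activated receptors such as the aryl hydrocarbon receptor, the constitutive androstane receptor and the pregnane X receptor, and many are lost when hepatocytes are kept in culture. The genes described here are the mouse genes whose symbol has the form of a P450 name with a family number, a subfamily letter and a gene number, leaving out the bile acid synthesis genes Cyp7a1, Cyp7b1, Cyp8b1 and Cyp27a1. Of 19087 genes measured, 72 had such a symbol, 4 were left out and 68 remained, read by 99 array probes. They belong to 29 subfamilies of 13 families, and 20 of the subfamilies are represented by 1 gene.

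RNA of cultured mouse cells was measured on 13 one-colour Agilent arrays, 1 for each sample. All cells were p19Arf-null, from the strain C57BL/6-129, so the controls carry the deletion too and no array served as a wild type. The transduced TTF array (1 array) holds tail-tip fibroblasts (TTF) taken 21 days after lentiviral transduction with 3 liver-enriched transcription factors, as a mixed culture of fibroblast and epithelial cells. The iHep arrays (4) hold induced hepatocyte-like cells, each grown from 1 colony of such transduced TTF and cultured for 21 days in modified Block's medium, with epithelial cells enriched by partial trypsin digestion. The Hepatocyte arrays (4) hold primary hepatocytes that were described as proliferating and had been cultured for 21 days in the same kind of medium. The MEF array (1) and the TTF arrays (3) hold embryonic and tail-tip fibroblasts cultured for 42 days in DMEM with 10% serum. Day and medium go with the fibroblast groups. In comparisons of iHep, Hepatocyte or transduced TTF arrays with TTF they therefore cannot be told apart from cell type. The MEF and TTF arrays share day and medium. No array of freshly isolated liver is among the samples.

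A gene's level is given as its log2 intensity minus the log2 of its array's 75th percentile, averaged over its probes, so that a level of 0 equals that percentile. Values on the arrays of a group are listed in replicate order. Levels of different genes were not compared, because probes differ in brightness. The 75th percentile lay between 1140 and 2260 intensity units, and 63.1% to 83.0% of features were above the limit of measurement, set at 3 times the lowest values of neighbouring features on that array. A gene counted as above the limit on an array if at least 1 of its probes was, while its level averages all of its probes. A level counted as above the limit can thus include probes that were not. Cyp4a10, Cyp2b19 and Cyp4a31, for example, each have a probe above the limit on 0 arrays. By this rule all 68 genes exceeded the limit on at least 1 array, 35 of them on all 13 arrays, and 8 exceeded it on no TTF array. A gene was called when limma's Benjamini-Hochberg adjusted p over all genes was under 0.05 and the log2 difference was at least 1. Nothing in the labels ties replicates to different mice or dishes, so each p-value reflects only how these arrays vary, which may be technical variation.

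The iHep arrays and the Hepatocyte arrays fell into pairs. Spearman's correlation over all features was 0.95 between iHep replicates 1 and 2, 0.978 between replicates 3 and 4, and 0.886 to 0.919 across these pairs. For the Hepatocyte arrays it was 0.98 between replicates 1 and 2, 0.974 between replicates 3 and 4, and 0.94 to 0.949 across the pairs. Xist, the RNA of the inactive X chromosome, was at 2.02 and 1.95 on iHep replicates 3 and 4 and at 1.08 on the MEF array, and at -7.1 or lower on every other array. The Y-linked gene Eif2s3y showed the reverse, with -9.04 and -8.58 on iHep replicates 3 and 4 and -9.24 on the MEF array, against 2.32 to 2.44 on the TTF arrays. The iHep pairs therefore also differ in sex-linked RNA, and calls that ended without one pair of arrays are given with their genes. The fit counts the 2 arrays of a pair as separate replicates. Leaving out 1 pair leaves a group with only the 2 arrays most alike. The adjusted p of such a fit can be small because their spread is small, and it says nothing about variation between pairs. Between the pairs' nearest arrays, 3 of the 68 genes were higher by at least 2 log2 units on iHep replicates 1 and 2 (Cyp2c29, Cyp2c40 and Cyp2c66) and 8 on iHep replicates 3 and 4 (Cyp1b1, Cyp26b1, Cyp2a5, Cyp2b10, Cyp2b9, Cyp2f2, Cyp2j6 and Cyp2s1). In the same way 6 were higher on Hepatocyte replicates 1 and 2 (Cyp26a1, Cyp2a12, Cyp2c23, Cyp2c70, Cyp2e1 and Cyp2f2) and 1 on Hepatocyte replicates 3 and 4 (Cyp2s1).

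Among the 68 P450 genes, 17 (25.0%) were called higher and 4 (5.88%) lower in iHep against TTF, while 6.86% of all genes were called higher and 6.52% lower. In Hepatocyte against TTF 18 (26.5%) were called higher and 2 (2.94%) lower, beside 7.47% and 4.91% of all genes. In iHep against Hepatocyte 9 (13.2%) were called higher and 13 (19.1%) lower, beside 6.25% and 7.5% of all genes. The median log2 difference over the 68 genes was 0.5 in iHep against TTF, 1.12 in Hepatocyte against TTF and -0.56 in iHep against Hepatocyte, and over all genes it was 0.07, 0.07 and -0.02. These 3 comparisons share arrays with each other, so they are not independent. The lists of partner genes and markers used below were chosen with earlier results of these arrays known. Counts of called genes in those lists are to be read beside the shares of all genes in the same comparison. In RNA from whole cultures, fewer cells of a type and less RNA per cell cannot be told apart.

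The share of higher genes depended on the scaling. Among all called genes, 60.3% were higher in Hepatocyte against TTF, but 34.1% when each array was shifted by its median and 49.3% with quantile normalization; in iHep against Hepatocyte the share was 45.4%, and 64.5% with the median shift. That shift moved the difference of all genes by -0.16 in iHep against TTF, -0.4 in Hepatocyte against TTF and 0.24 in iHep against Hepatocyte. It left 15 P450 genes called higher and 5 lower in iHep against TTF, 12 and 2 in Hepatocyte against TTF, and 10 and 11 in iHep against Hepatocyte. The median shift and no shift each move all genes of a comparison by the same amount, which was smaller than the difference required for a call. These settings could therefore not turn the direction of a called gene, and they do not test it. With quantile normalization, which does not move all genes alike, none of the called P450 genes changed direction.

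In all, 36 of the 68 genes were called in at least 1 of these comparisons and 32 in none. Of the 21 genes called in iHep against TTF, 12 were called under each alternative setting tried, with each single array left out and with either pair of iHep arrays left out: Cyp2b13, Cyp2c66, Cyp2d10, Cyp2d12, Cyp2d22, Cyp2d26, Cyp2d34, Cyp2d9, Cyp2j9, Cyp2s1, Cyp4b1 and Cyp4v3. With the pairs of Hepatocyte arrays in their place, 6 of 20 were called throughout in Hepatocyte against TTF (Cyp2d10, Cyp2d26, Cyp2d34, Cyp2d9, Cyp3a13 and Cyp4b1), and with the pairs of both groups 7 of 22 were in iHep against Hepatocyte (Cyp2c66, Cyp2d12, Cyp2d26, Cyp2d9, Cyp2s1, Cyp4b1 and Cyp4v3). Counts of lower and of hepatocyte calls depended on single arrays. The 18 genes called higher in Hepatocyte against TTF became 10 without TTF replicate 2 and 10 without TTF replicate 3, and 7 without Hepatocyte replicates 1 and 2. The 4 genes called lower in iHep against TTF became 2 without TTF replicate 2 and 2 without TTF replicate 3. The 2 genes called lower in Hepatocyte against TTF became 1 without any 1 Hepatocyte array or TTF replicate 1, and 0 without TTF replicate 2 or TTF replicate 3. The 13 genes called lower in iHep against Hepatocyte became 7 without Hepatocyte replicate 1, 8 without Hepatocyte replicate 2, 8 without iHep replicate 4, and 2 without Hepatocyte replicates 1 and 2 together.

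**Figure D1:**
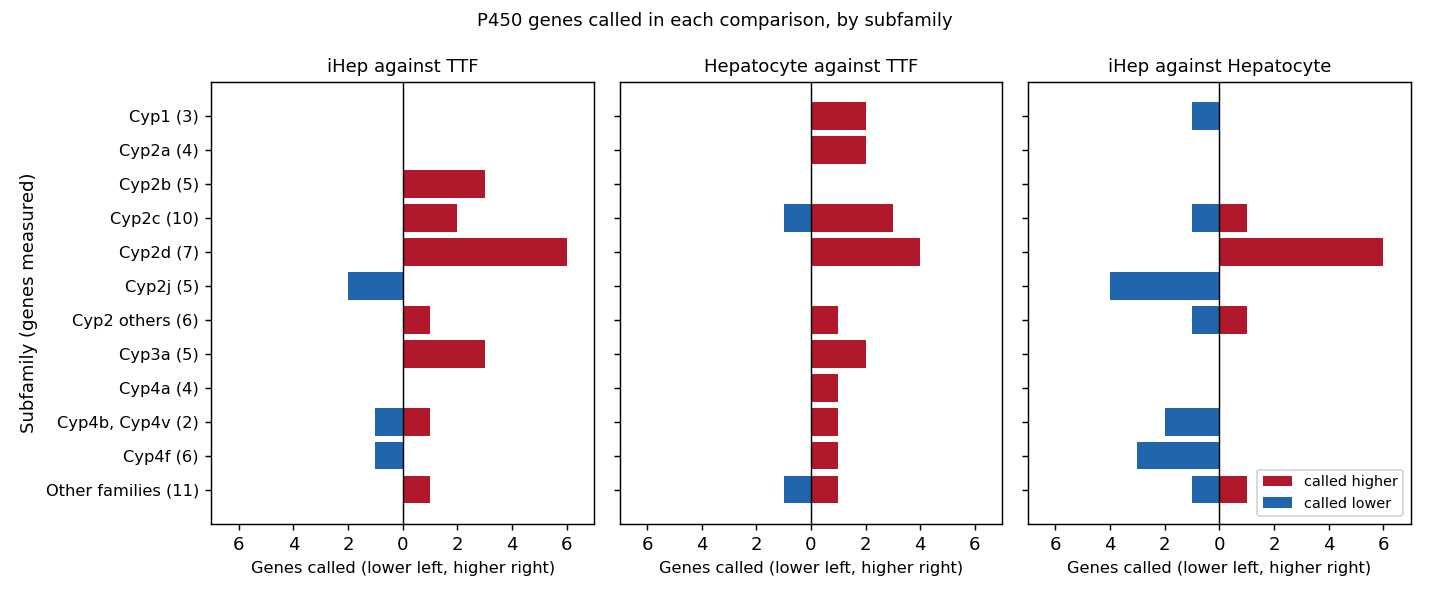
Number of P450 genes called lower (bars to the left) and higher (bars to the right) in each comparison, by subfamily, with the number of genes measured in brackets. Of the 7 Cyp2d genes, 6 were called higher in iHep against TTF, 4 in Hepatocyte against TTF and 6 in iHep against Hepatocyte. Of the 5 Cyp2j genes, 4 were called lower in iHep against Hepatocyte.

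The Cyp2d genes, relatives of the human drug-metabolising enzyme CYP2D6, were mostly higher in iHep cells than in TTF and than in cultured hepatocytes. Of 7 measured genes, 6 were called higher in iHep against TTF, 4 in Hepatocyte against TTF and 6 in iHep against Hepatocyte, and none was called lower. Their median log2 difference was 3.9 in iHep against TTF, 1.91 in Hepatocyte against TTF and 1.99 in iHep against Hepatocyte. The stretches of 100 bases before the start sites of the 3 called Cyp2d genes that have an entry in the RefSeq promoter table (GRCm38.p6) are shown because these genes of chromosome 15 moved together, a choice made after their values were seen; capitals mark the TATA box motif TATAAA and the HNF4 site motif CAAAGT on either strand:
Cyp2d26, chr15:82794246-82794345, minus strand: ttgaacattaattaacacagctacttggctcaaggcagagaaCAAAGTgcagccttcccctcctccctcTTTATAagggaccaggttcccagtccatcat
Cyp2d9, chr15:82452277-82452376, plus strand: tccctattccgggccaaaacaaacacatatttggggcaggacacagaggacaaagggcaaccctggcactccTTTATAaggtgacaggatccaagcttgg
Cyp2d10, chr15:82407195-82407294, minus strand: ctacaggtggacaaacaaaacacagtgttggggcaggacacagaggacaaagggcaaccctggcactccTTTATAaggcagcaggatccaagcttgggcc
All 3 hold the TATA box motif and only the Cyp2d26 stretch holds CAAAGT. The promoters of Cyp2d10 and Cyp2d9 were 82.8% identical over 250 bases, and that of Cyp2d26 was 54.4% identical to Cyp2d10 and 54.0% to Cyp2d9.

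Cyp2d26 was at 3.12, 3.89, 2.16 and 3.32 on the iHep arrays, at 0.84, -0.17, -1.95 and 0.44 on the Hepatocyte arrays, and at -4.03, -4.53 and -4.79 on the TTF arrays. None of the 3 groups overlapped. Its log2 difference was 7.58 ± 0.62 (SE, adjusted p = 3.5e-05) in iHep against TTF, 4.24 ± 0.62 (adjusted p = 0.0016) in Hepatocyte against TTF and 3.33 ± 0.58 (adjusted p = 0.0041) in iHep against Hepatocyte. Cyp2d9, a testosterone hydroxylase known for higher levels in male than in female mouse liver, had levels of 1.33, 2.02, 1.58 and 2.22 on the iHep arrays, 0.34, -0.61, -0.44 and -0.1 on the Hepatocyte arrays, and -2.68, -2.03 and -1.62 on the TTF arrays. Here too the 3 groups were apart, and iHep replicates 3 and 4, the arrays with Xist, lay in the same range as replicates 1 and 2. Sex cannot be told apart from other differences between the iHep pairs, and its part in the Cyp2d9 levels was not tested. The Cyp2d9 differences were 3.9 ± 0.35 (adjusted p = 6.7e-05) in iHep against TTF, 1.91 ± 0.35 (adjusted p = 0.006) in Hepatocyte against TTF and 1.99 ± 0.33 (adjusted p = 0.0033) in iHep against Hepatocyte.

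Cyp2d34 was above the limit of measurement on no TTF array. Its levels were -3.75, -1.32, -1.64 and -1.58 on the iHep arrays, -5.01, -4.37, -5.32 and -3.62 on the Hepatocyte arrays, and -7.28, -8.88 and -8.63 on the TTF arrays. It was at least 38.1-fold higher in iHep than in TTF (adjusted p = 0.00016) and at least 6.71-fold higher in Hepatocyte than in TTF (adjusted p = 0.0044), where a bound sets the group mean against the limit of the dim arrays. The iHep and Hepatocyte arrays overlapped through iHep replicate 1, with a log2 difference of 2.51 ± 0.6 (adjusted p = 0.019). That call was lost without Hepatocyte replicate 1, Hepatocyte replicate 3 or iHep replicate 3 (adjusted p = 0.051 to 0.055), without Hepatocyte replicates 1 and 2 (2.4, adjusted p = 0.11) and with iHep replicates 3 and 4 left out (2.04, adjusted p = 0.11).

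Cyp2d12 was at -0.46, 0.11, -0.39 and 0.46 on the iHep arrays, at -2.07, -3.46, -2.91 and -2.36 on the Hepatocyte arrays, and at -5.22, -4.06 and -3.5 on the TTF arrays. The iHep arrays were above all others, while the highest TTF array and the lowest Hepatocyte array nearly met. The difference was 4.19 ± 0.46 (adjusted p = 0.00022) in iHep against TTF and 2.63 ± 0.43 (adjusted p = 0.0031) in iHep against Hepatocyte. In Hepatocyte against TTF it was 1.56 ± 0.46 and did not pass (adjusted p = 0.05).

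Cyp2d10 had levels of -1.3, -0.56, -0.25 and -0.13 on the iHep arrays, -1.77, -2.35, -2.5 and -1.32 on the Hepatocyte arrays, and -4.1, -4.69 and -4.39 on the TTF arrays, with no overlap. It rose by 3.83 ± 0.38 in iHep against TTF (adjusted p = 0.00011), by 2.41 ± 0.38 in Hepatocyte against TTF (adjusted p = 0.0022) and by 1.43 ± 0.35 in iHep against Hepatocyte (adjusted p = 0.021). Its 2 probes gave 1.63 and 6.04 in iHep against TTF, so the size of the change is uncertain. Without Hepatocyte replicate 2, Hepatocyte replicate 3, iHep replicate 3 or iHep replicate 4 the last of these calls was lost (adjusted p = 0.054 to 0.058). It also ended without Hepatocyte replicates 1 and 2 (1.35, adjusted p = 0.1) and with iHep replicates 3 and 4 left out (1.05, adjusted p = 0.12).

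Cyp2d22 rose by 2.7 ± 0.5 in iHep against TTF (adjusted p = 0.0046) and by 1.91 ± 0.46 in iHep against Hepatocyte (adjusted p = 0.02), and was not called in Hepatocyte against TTF (0.79 ± 0.5, adjusted p = 0.34). Its call against Hepatocyte was lost without Hepatocyte replicate 1, iHep replicate 3 or iHep replicate 4 (adjusted p = 0.051 to 0.053), and without Hepatocyte replicates 1 and 2 (1.36, adjusted p = 0.13) or iHep replicates 3 and 4 (1.51, adjusted p = 0.11). Cyp2d13 was above the limit on Hepatocyte replicates 1 and 2, at -6.87 and -6.89, and on no iHep or TTF array, and was not called. Cyp2d genes are close in sequence, so a probe of 1 gene may also bind RNA of another, and the share of each gene in these levels is uncertain.

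**Figure D2:**
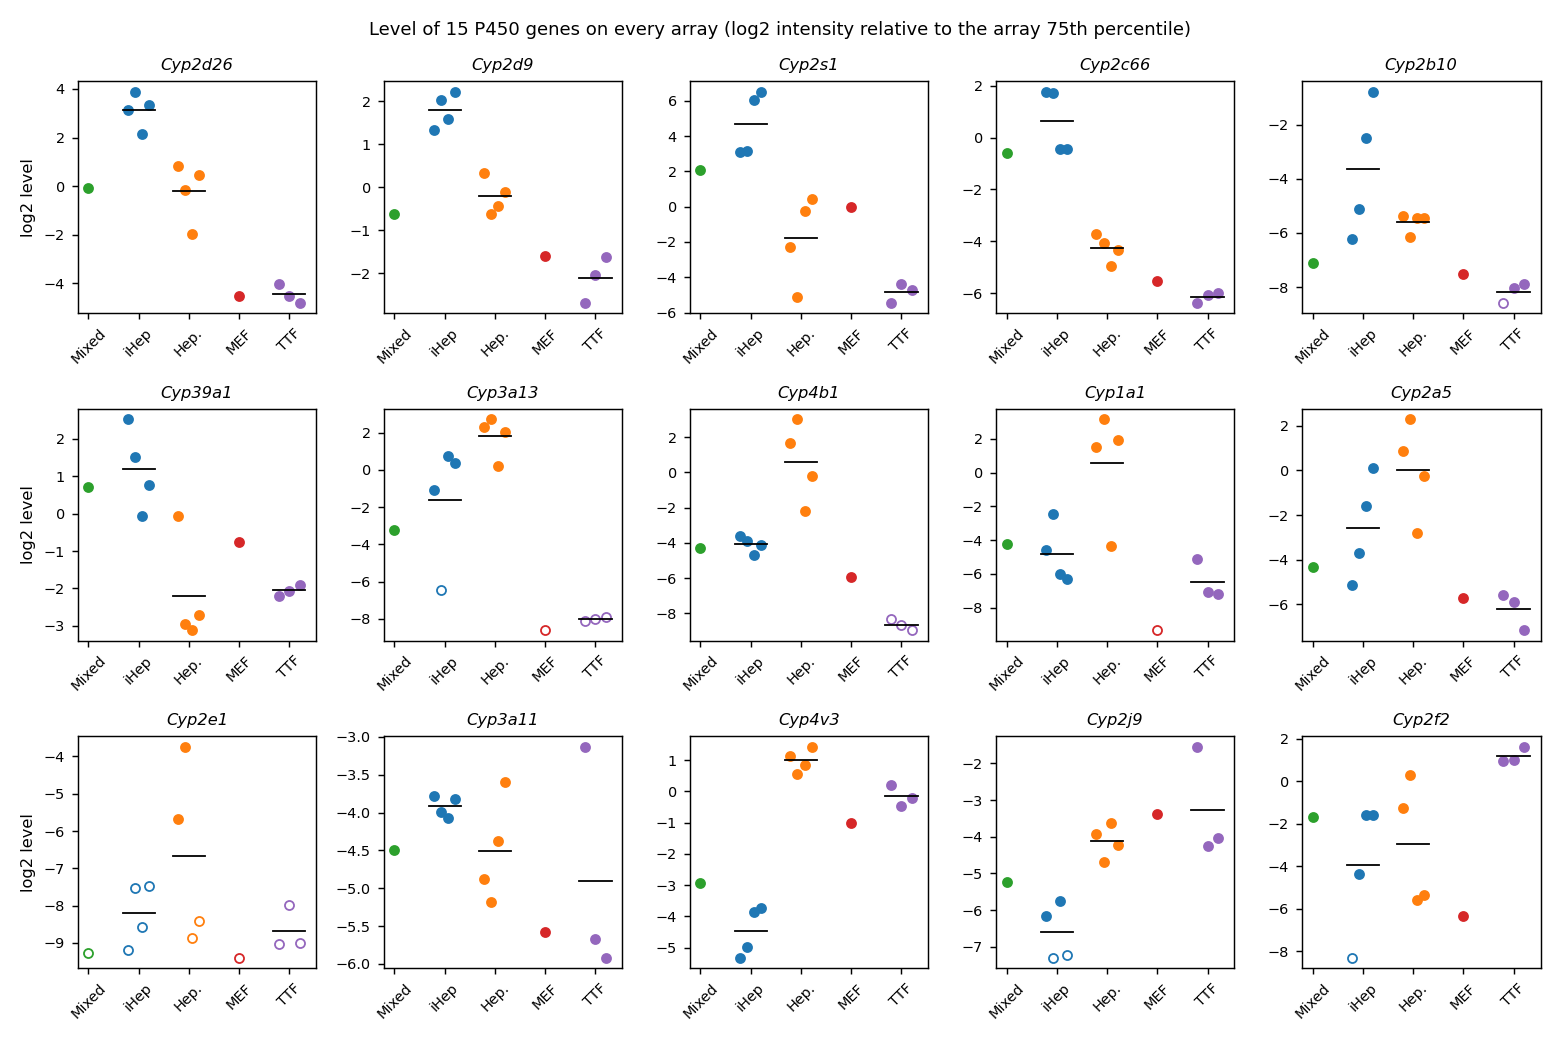
Level of 15 P450 genes on every array, as log2 intensity minus that of the 75th percentile, for the mixed transduced TTF (1 array), iHep (4), Hepatocyte (4), MEF (1) and TTF (3) groups. Open points were not above the limit of measurement and lines are group means. Cyp2d26 and Cyp2d9 separate all 3 replicated groups, Cyp2e1 is above the limit on 2 Hepatocyte arrays only, and Cyp4v3 is lowest on the iHep arrays.

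The single-gene subfamily Cyp2s and the Cyp2c gene Cyp2c66 were higher in iHep cells than in both other groups. Cyp2s1, an enzyme known from epithelia outside the liver, was at 3.12, 3.18, 6.02 and 6.52 on the iHep arrays, at -2.28, -5.1, -0.27 and 0.45 on the Hepatocyte arrays, and at -5.44, -4.36 and -4.71 on the TTF arrays. All iHep arrays lay above all others, and Hepatocyte replicate 2 lay within the TTF range. The log2 difference was 9.55 ± 1.27 (adjusted p = 0.00069) in iHep against TTF and 6.51 ± 1.18 (adjusted p = 0.0051) in iHep against Hepatocyte. In Hepatocyte against TTF it was 3.03 ± 1.27 and did not pass (adjusted p = 0.15), although it passed without Hepatocyte replicate 2 (4.13, adjusted p = 0.035) and without Hepatocyte replicates 1 and 2 (4.92, adjusted p = 0.028).

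Cyp2c66, described in mouse mainly from the gut, was at 1.77, 1.7, -0.46 and -0.44 on the iHep arrays, at -3.71, -4.06, -4.93 and -4.33 on the Hepatocyte arrays, and at -6.36, -6.07 and -5.99 on the TTF arrays. No groups overlapped. It rose by 6.78 ± 0.59 in iHep against TTF (adjusted p = 5.1e-05) and by 4.9 ± 0.55 in iHep against Hepatocyte (adjusted p = 0.00035), and was not called in Hepatocyte against TTF (1.88 ± 0.59, adjusted p = 0.06). Of 6 intestinal epithelium markers, 3 were called higher in iHep against TTF (6.86% of all genes), 1 in Hepatocyte against TTF (7.47%) and 3 in iHep against Hepatocyte (6.25%). The log2 level of their summed intensity was 3.46 to 7.06 on the iHep arrays, -1.81 to 1.21 on the Hepatocyte arrays and -2.88 to -2.02 on the TTF arrays, and each marker was above the limit on at least 1 array of each of these groups. The gut transcription factor Cdx2 differed by 7.1 ± 0.92 in iHep against TTF (adjusted p = 0.00059). The part of intestinal-type cells in the Cyp2s1 and Cyp2c66 levels was not tested.

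Many of the other Cyp2c enzymes epoxidise arachidonic acid. Of the 10 Cyp2c genes measured, Cyp2c66 included, 2 were called higher in iHep against TTF, 3 higher and 1 lower in Hepatocyte against TTF, and 1 higher and 1 lower in iHep against Hepatocyte. Promoter stretches of Cyp2c66 and Cyp2c40 (RefSeq, GRCm38.p6) are shown because these genes of chromosome 19 were the Cyp2c genes called higher in iHep against TTF; capitals mark CAAAGT:
Cyp2c66, chr19:39113798-39113897, plus strand: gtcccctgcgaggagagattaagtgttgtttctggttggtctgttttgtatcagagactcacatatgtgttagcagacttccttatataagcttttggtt
Cyp2c40, chr19:39812815-39812914, minus strand: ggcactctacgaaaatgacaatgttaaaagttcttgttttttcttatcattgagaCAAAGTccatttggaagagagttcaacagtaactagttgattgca
The Cyp2c40 stretch holds CAAAGT and the Cyp2c66 stretch holds none of the motifs searched. Cyp2c40, which acts on arachidonic acid, had levels of -2.96, -2.0, -5.51 and -6.36 on the iHep arrays, -2.2, -1.41, -4.67 and -2.42 on the Hepatocyte arrays, and -8.38, -8.12 and -7.58 on the TTF arrays. Within the iHep and within the Hepatocyte arrays the levels were highest on replicates 1 and 2. Cyp2c40 was above the limit on only 2 of the 3 TTF arrays, so its differences from TTF are not exact sizes. Its log2 difference was 3.82 ± 1.04 (adjusted p = 0.033) in iHep against TTF and 5.35 ± 1.04 (adjusted p = 0.0075) in Hepatocyte against TTF, and -1.53 ± 0.96 (adjusted p = 0.31) in iHep against Hepatocyte. The iHep call was lost without any 1 TTF array, iHep replicate 1 or iHep replicate 2 (adjusted p = 0.059 to 0.1), and the difference was 2.09 (adjusted p = 0.11) without both of these iHep arrays. It was also lost when the other group was kept out of the fit (adjusted p = 0.054). Without Hepatocyte replicates 1 and 2 the Hepatocyte difference was 4.48 and did not pass (adjusted p = 0.077).

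Cyp2c29, an arachidonic acid epoxygenase of liver, was at -1.65, -1.66, -3.91 and -3.86 on the iHep arrays, at -0.81, -1.52, -4.51 and -2.76 on the Hepatocyte arrays, and at -5.77, -5.26 and -5.7 on the TTF arrays. The iHep and Hepatocyte arrays lay above TTF and overlapped each other. The difference passed in Hepatocyte against TTF (3.17 ± 0.87, adjusted p = 0.036) and not in iHep against TTF (2.8 ± 0.87, adjusted p = 0.057). The first call was lost without any 1 TTF array, or Hepatocyte replicate 1, 2 or 4 (adjusted p = 0.058 to 0.12), with quantile normalization (2.88, adjusted p = 0.068), with the median shift (2.78, adjusted p = 0.057) and without Hepatocyte replicates 1 and 2 (1.94, adjusted p = 0.24). The second comparison passed without Hepatocyte replicate 1 or Hepatocyte replicate 3 (adjusted p = 0.046 and 0.023), which enter its fit through the shared spread. It also passed with no shift (adjusted p = 0.035), with Hepatocyte kept out of the fit (adjusted p = 0.035) and with iHep replicates 3 and 4 left out (3.92, adjusted p = 0.022).

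Cyp2c39, a retinoic acid hydroxylase of mouse liver, was above the limit on no iHep array, on 3 Hepatocyte arrays and on 1 TTF array. It was at -8.3, -7.32, -8.46 and -8.77 on the iHep arrays, at -4.34, -4.29, -7.45 and -5.76 on the Hepatocyte arrays, and at -8.86, -7.6 and -8.22 on the TTF arrays. Hepatocyte replicate 3 overlapped the iHep arrays. The gene was at least 3.11-fold lower in iHep than in Hepatocyte (adjusted p = 0.02) and differed by 2.77 ± 0.71 in Hepatocyte against TTF (adjusted p = 0.029). The 3.11-fold bound is approximate, because the Hepatocyte mean includes 1 array not above the limit. The iHep against Hepatocyte call was lost without Hepatocyte replicate 1, Hepatocyte replicate 2 or iHep replicate 4 (adjusted p = 0.05 to 0.057), and the Hepatocyte against TTF call without Hepatocyte replicate 1, Hepatocyte replicate 2 or any 1 TTF array (adjusted p = 0.058 to 0.093). Both calls ended without Hepatocyte replicates 1 and 2 (adjusted p = 0.14 and 0.18) and with dim values set to the limit (adjusted p = 0.098 and 0.077). The first also ended without iHep replicates 3 and 4 (adjusted p = 0.1), and the second with the median shift (adjusted p = 0.051) and with iHep kept out of the fit (adjusted p = 0.05).

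Cyp2c55, known from the mouse colon, was the only Cyp2c gene called lower against TTF. It was at -4.78 to -5.85 on the Hepatocyte arrays and at -4.6, -3.1 and -2.74 on the TTF arrays (-1.73 ± 0.47, adjusted p = 0.034), and the call was lost without any 1 Hepatocyte array, TTF replicate 2 or TTF replicate 3 (adjusted p = 0.051 to 0.15). Leaving out Hepatocyte replicates 1 and 2 gave -2.08 (adjusted p = 0.073), and leaving out replicates 3 and 4 gave -1.39 (adjusted p = 0.13). Cyp2c70, which makes muricholic acids in mouse liver, was not called in any comparison. It was at 0.86, -1.9, -2.55 and -2.93 on the iHep arrays, at 2.06, 0.49, -2.87 and -1.65 on the Hepatocyte arrays and at -3.36, -3.63 and -3.29 on the TTF arrays, so that all iHep and Hepatocyte arrays were above all TTF arrays with a wide spread. Cyp2c23 (2.43 ± 0.77 in iHep against Hepatocyte, adjusted p = 0.059), Cyp2c37, Cyp2c38 and Cyp2c54 were not called in any comparison.

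Of 5 Cyp2b genes, 3 rose in iHep cells against TTF (Cyp2b10, Cyp2b9 and Cyp2b13) and none was called in either of the other comparisons in the fit of all 3 groups. In this subfamily, Cyp2b10 is the phenobarbital-inducible form controlled by the constitutive androstane receptor, and Cyp2b9 and Cyp2b13 are known for higher levels in female than in male mouse liver. The promoters of Cyp2b10 and Cyp2b9, both on chromosome 7 (RefSeq, GRCm38.p6), are shown because their levels moved together over the iHep arrays; capitals mark the C/EBP-like motif TTGCNNAA and the aryl hydrocarbon receptor core GCGTG:
Cyp2b10, chr7:25897558-25897657, plus strand: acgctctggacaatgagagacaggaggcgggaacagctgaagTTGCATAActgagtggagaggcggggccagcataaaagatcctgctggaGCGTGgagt
Cyp2b9, chr7:26173309-26173408, plus strand: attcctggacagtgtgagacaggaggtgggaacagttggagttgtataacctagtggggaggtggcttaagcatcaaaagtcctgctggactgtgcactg
The Cyp2b10 stretch holds both motifs and the Cyp2b9 stretch neither, and these promoters were 71.0% identical over 250 bases. The promoters of Cyp2b13 and Cyp2b9 were 99.2% identical.

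Cyp2b10 was at -6.22, -5.13, -2.48 and -0.77 on the iHep arrays, at -5.37, -6.15, -5.43 and -5.44 on the Hepatocyte arrays, and at -8.58, -8.03 and -7.89 on the TTF arrays. Cyp2b9 followed with -5.57, -4.87, -2.43 and -0.85 on the iHep arrays, -4.89, -5.54, -5.04 and -5.45 on the Hepatocyte arrays, and -7.63, -7.25 and -7.86 on the TTF arrays. For both genes iHep replicates 3 and 4 were the highest of all arrays, iHep replicates 1 and 2 lay in or near the Hepatocyte range, and every TTF array was below. The differences in iHep against TTF were 4.52 ± 1.04 for Cyp2b10 (adjusted p = 0.015), 4.15 ± 0.92 for Cyp2b9 (adjusted p = 0.012) and 3.53 ± 0.67 for Cyp2b13 (adjusted p = 0.0055). Cyp2b10 and Cyp2b9 were above the limit on only 2 of the 3 TTF arrays, so their differences from TTF are not exact sizes. In iHep against Hepatocyte the Cyp2b10 difference was 1.95 ± 0.96 (adjusted p = 0.2), or 3.97 (adjusted p = 0.00082) without iHep replicates 1 and 2 and -0.08 (adjusted p = 0.92) without iHep replicates 3 and 4. The high pair is the one with Xist at 2.02 and 1.95 and without Y-linked RNA; the part of sex, or of any other difference between the colonies, in these levels was not tested.

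The Cyp2b10 call was lost without TTF replicate 1 or TTF replicate 2 (adjusted p = 0.053 and 0.051) or with Hepatocyte kept out of the fit (adjusted p = 0.055), and the Cyp2b9 call without TTF replicate 3 (adjusted p = 0.054). In iHep against TTF the 2 probes of Cyp2b9 gave 1.6 and 6.7 and those of Cyp2b13 gave 1.21 and 5.84. For both genes the probe with the larger change was above the limit on only 10 of the 13 arrays and was lowest on the TTF arrays. The genes of this close group may also share signal, so their sizes of change are uncertain. In Hepatocyte against TTF Cyp2b10 differed by 2.57 ± 1.04 (adjusted p = 0.13), and this passed with iHep kept out of the fit (adjusted p = 0.002) and without iHep replicate 4 (adjusted p = 0.043). Cyp2b19, known from keratinocytes, and Cyp2b23 differed by at most 0.62 in any comparison and were not called.

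Of 4 Cyp2a genes, Cyp2a5 and Cyp2a4 rose in Hepatocyte against TTF, and none was called in the other comparisons. Cyp2a5 is the mouse coumarin hydroxylase and Cyp2a4 its close relative that hydroxylates testosterone and is higher in female mouse liver. The promoters of Cyp2a5 and Cyp2a4 on chromosome 7 (RefSeq, GRCm38.p6) are shown because these genes moved together and are nearly the same in this stretch (97.6% identical over 250 bases); capitals mark TTGCNNAA, CAAAGT and TATAAA, in that order:
Cyp2a5, chr7:26835239-26835338, plus strand: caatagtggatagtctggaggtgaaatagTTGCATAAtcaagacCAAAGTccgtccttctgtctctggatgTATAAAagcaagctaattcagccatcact
Cyp2a4, chr7:26307092-26307191, plus strand: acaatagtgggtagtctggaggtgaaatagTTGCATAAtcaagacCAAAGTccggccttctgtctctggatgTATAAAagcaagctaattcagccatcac
Cyp2a5 was at -5.12, -3.7, -1.61 and 0.1 on the iHep arrays, at 0.87, 2.29, -2.79 and -0.26 on the Hepatocyte arrays, and at -5.6, -5.88 and -7.16 on the TTF arrays. Cyp2a4 was at -5.01, -3.49, -2.97 and -1.43 on the iHep arrays, at -0.26, 1.12, -3.67 and -1.64 on the Hepatocyte arrays, and at -5.57, -6.48 and -6.63 on the TTF arrays. All Hepatocyte and iHep arrays lay above all TTF arrays for both genes, and the iHep and Hepatocyte groups overlapped. The difference in Hepatocyte against TTF was 6.24 ± 1.32 for Cyp2a5 (adjusted p = 0.012) and 5.12 ± 1.06 for Cyp2a4 (adjusted p = 0.011).

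In iHep against TTF Cyp2a5 differed by 3.63 ± 1.32 (adjusted p = 0.1) and Cyp2a4 by 3.0 ± 1.06 (adjusted p = 0.091). Without TTF replicate 3 the Cyp2a5 call was lost (adjusted p = 0.057), and without Hepatocyte replicates 1 and 2 both were (adjusted p = 0.099 for Cyp2a5 and 0.071 for Cyp2a4). Probes of such close relatives may each bind RNA of the other gene, so the share of Cyp2a4 and of Cyp2a5 in these levels is uncertain, and in Hepatocyte against TTF the 2 probes of Cyp2a4 gave 3.67 and 6.56. Cyp2a12, a bile acid and steroid hydroxylase of adult mouse liver, was above the limit only on Hepatocyte replicates 1 and 2, at -5.64 and -3.85, and was not called. Cyp2a22 was not called in any comparison.

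The Cyp1 genes are targets of the aryl hydrocarbon receptor. Of 3 genes, 2 were called higher in Hepatocyte against TTF, none in iHep against TTF, and 1 was lower in iHep against Hepatocyte. The promoter of Cyp1a1, which oxidises polycyclic aromatic hydrocarbons, is shown (RefSeq, GRCm38.p6) because this gene is the classical target of that receptor; capitals mark GCGTG and TATAAA:
Cyp1a1, chr9:57697513-57697612, plus strand: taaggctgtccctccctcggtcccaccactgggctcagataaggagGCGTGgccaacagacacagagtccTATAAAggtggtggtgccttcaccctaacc
Cyp1a1 was at -4.56, -2.44, -6.01 and -6.3 on the iHep arrays, at 1.54, 3.17, -4.33 and 1.93 on the Hepatocyte arrays, and at -5.1, -7.06 and -7.21 on the TTF arrays. Hepatocyte replicate 3 lay within the iHep range, and the other Hepatocyte arrays were above all others. The difference was 7.03 ± 1.59 (adjusted p = 0.016) in Hepatocyte against TTF, -5.4 ± 1.47 (adjusted p = 0.033) in iHep against Hepatocyte and 1.63 ± 1.59 (adjusted p = 0.59) in iHep against TTF.

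The first of these calls was lost without TTF replicate 2 or TTF replicate 3 (adjusted p = 0.066 to 0.071) and without Hepatocyte replicates 1 and 2 (5.26, adjusted p = 0.13). The second was lost without Hepatocyte replicate 1, 2 or 4, or iHep replicate 1, 3 or 4 (adjusted p = 0.058 to 0.086), with TTF kept out of the fit (adjusted p = 0.066), without Hepatocyte replicates 1 and 2 (-3.63, adjusted p = 0.23) and with iHep replicates 3 and 4 left out (-4.08, adjusted p = 0.18). The receptor gene Ahr itself was higher in Hepatocyte against TTF (2.56 ± 0.46, adjusted p = 0.0052) and lower in iHep against Hepatocyte (-2.88 ± 0.43, adjusted p = 0.0019). Its repressor gene Ahrr was lower in iHep against TTF (-4.95 ± 1.34, adjusted p = 0.032).

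Cyp1b1, which hydroxylates oestradiol and is known from tissues outside the liver, was at -4.03, -4.52, 0.07 and 0.53 on the iHep arrays, at -0.14, -0.72, 0.84 and 0.53 on the Hepatocyte arrays, and at -2.61, -6.12 and -5.82 on the TTF arrays. The iHep arrays split, with replicates 3 and 4 in the Hepatocyte range and replicates 1 and 2 in the TTF range. It rose by 4.98 ± 1.3 in Hepatocyte against TTF (adjusted p = 0.03), a call lost without any 1 Hepatocyte array, TTF replicate 2 or TTF replicate 3 (adjusted p = 0.05 to 0.12), Hepatocyte replicates 1 and 2 (5.54, adjusted p = 0.1) or Hepatocyte replicates 3 and 4 (4.42, adjusted p = 0.11). In iHep against TTF it differed by 2.86 ± 1.3 (adjusted p = 0.19), or by 5.15 (adjusted p = 0.006) without iHep replicates 1 and 2 and by 0.58 (adjusted p = 0.75) without iHep replicates 3 and 4. Set against Hepatocyte, the iHep difference was -2.12 ± 1.2 (adjusted p = 0.26), or -4.4 (adjusted p = 0.016) without iHep replicates 3 and 4 and 0.17 (adjusted p = 0.91) without iHep replicates 1 and 2. Cyp1a2, the main hepatic form of the family, was at -5.97, -5.3, -7.31 and -4.65 on the Hepatocyte arrays against -6.95, -5.93 and -7.27 on the TTF arrays, which overlapped, and was not called. The Cyp1a2 difference in iHep against Hepatocyte was -1.47 ± 0.54 (adjusted p = 0.096), and it passed without Hepatocyte replicate 3 (-1.97, adjusted p = 0.021). With the brightest probe in place of the mean, Cyp1a2 passed in Hepatocyte against TTF (1.55, adjusted p = 0.024) and in iHep against Hepatocyte (-1.6, adjusted p = 0.014). The 2 probes of Cyp1b1 gave 3.07 and 6.89 in Hepatocyte against TTF.

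**Figure D3:**
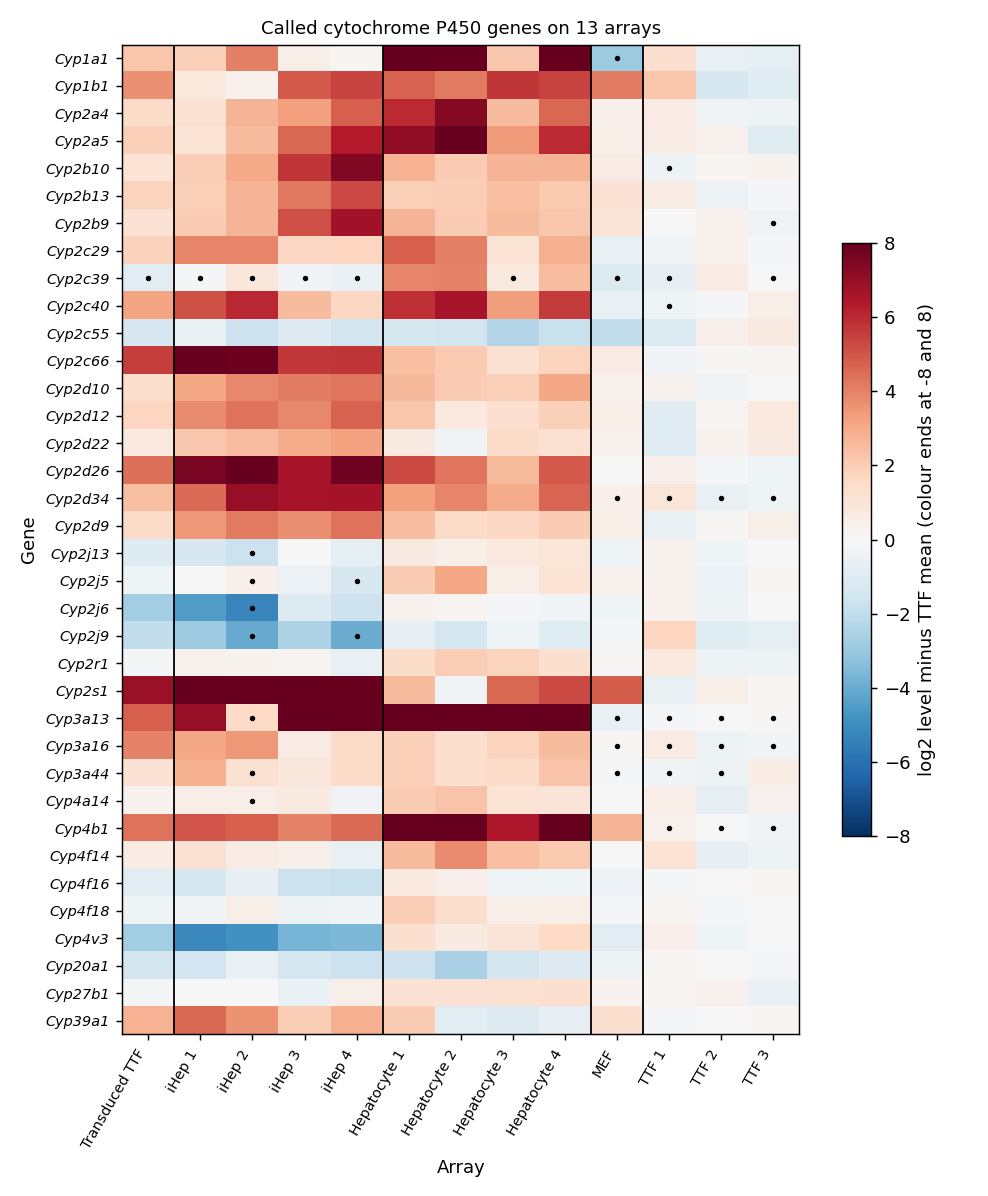
Levels of the 36 called P450 genes on all 13 arrays, each minus the gene's TTF mean (log2; red is higher and blue lower, with colours ending at -8 and 8). Dots mark arrays not above the limit of measurement; the mixed transduced TTF array is at the left, and the split of iHep replicates 1 and 2 from 3 and 4 shows in the Cyp2b genes, Cyp1b1, Cyp2c40 and Cyp2j6.

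Family 3, the main drug-oxidising family of adult liver, was represented by 5 Cyp3a genes. Of these, 3 were called higher in iHep against TTF, 2 higher in Hepatocyte against TTF and none in iHep against Hepatocyte. Cyp3a13, a form of liver and intestine, was at -1.06, -6.43, 0.72 and 0.35 on the iHep arrays, at 2.31, 2.72, 0.22 and 2.05 on the Hepatocyte arrays, and at -8.13, -7.99 and -7.9 on the TTF arrays. It was above the limit on no TTF array and not on iHep replicate 2. It was at least 57.6-fold higher in iHep than in TTF (adjusted p = 0.013) and at least 622-fold higher in Hepatocyte than in TTF (adjusted p = 0.0015). The 57.6-fold bound is approximate, because the iHep mean includes replicate 2. In iHep against Hepatocyte it differed by -3.43 ± 1.32 (adjusted p = 0.11), or by -5.57 (adjusted p = 0.022) without iHep replicates 3 and 4. The call in iHep against TTF was lost without those arrays (adjusted p = 0.071).

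Cyp3a11, the most abundant form of adult mouse liver and a target of the pregnane X receptor, was called in no comparison. It was at -3.78, -3.99, -4.07 and -3.82 on the iHep arrays, at -4.88, -5.18, -4.38 and -3.59 on the Hepatocyte arrays, and at -3.13, -5.67 and -5.92 on the TTF arrays. TTF replicate 1 was the highest of the 13 arrays. The difference in iHep against TTF was 0.99 ± 0.62 (adjusted p = 0.36), or 1.88 (adjusted p = 0.018) without TTF replicate 1. The pregnane X receptor gene Nr1i2 was higher in iHep against TTF (3.42 ± 0.52, adjusted p = 0.0015) and in iHep against Hepatocyte (1.78 ± 0.48, adjusted p = 0.033).

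Cyp3a16, known from fetal mouse liver, was at least 2.87-fold higher in iHep than in TTF, where it was above the limit on no array (adjusted p = 0.042). Cyp3a44, known for higher levels in female mouse liver, rose by 1.61 ± 0.46 in iHep against TTF (adjusted p = 0.043) and by 1.75 ± 0.46 in Hepatocyte against TTF (adjusted p = 0.033). It was at -5.6, -7.19, -7.54 and -6.93 on the iHep arrays, 3 of them above the limit, and at -8.62, -8.84 and -7.82 on the TTF arrays. Only 1 of these TTF arrays was above the limit, so differences of Cyp3a44 from TTF are not exact sizes. The highest iHep array was replicate 1, which is outside the pair with Xist, and the part of sex in Cyp3a44 levels was not tested. The Cyp3a16 call was lost without any 1 Hepatocyte or TTF array, iHep replicate 1 or iHep replicate 2 (adjusted p = 0.052 to 0.15), and the iHep call of Cyp3a44 without any 1 Hepatocyte or TTF array, iHep replicate 1 or iHep replicate 4 (adjusted p = 0.052 to 0.17). The Hepatocyte call of Cyp3a44 was lost without Hepatocyte replicate 1, Hepatocyte replicate 4, TTF replicate 1 or TTF replicate 2 (adjusted p = 0.075 to 0.13), without Hepatocyte replicates 1 and 2 (1.85, adjusted p = 0.11) and without Hepatocyte replicates 3 and 4 (1.64, adjusted p = 0.094). It was also lost with no shift, quantile normalization, the median shift or dim values set to the limit (adjusted p = 0.056 to 0.098). The iHep calls of Cyp3a16 and Cyp3a44 ended without iHep replicates 1 and 2 (adjusted p = 0.13 and 0.072). With no shift, the median shift, dim values set to the limit or Hepatocyte kept out of the fit, they ended as well (adjusted p = 0.053 to 0.13 for Cyp3a16 and 0.068 to 0.094 for Cyp3a44), and that of Cyp3a16 ended with quantile normalization (adjusted p = 0.075). The promoters of Cyp3a16 and Cyp3a44 were 92.9% identical over 250 bases. The 2 probes of Cyp3a44 gave 0.49 and 3.0 in Hepatocyte against TTF. Cyp3a25 was not called.

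Family 4 was divided between subfamilies. Cyp4b1, a fatty acid hydroxylase best known from lung, was at -3.64, -3.87, -4.68 and -4.15 on the iHep arrays, at 1.68, 3.01, -2.18 and -0.2 on the Hepatocyte arrays, and at -8.32, -8.68 and -8.96 on the TTF arrays, none of which was above the limit. The 3 groups did not overlap. It was at least 10.6-fold higher in iHep than in TTF (adjusted p = 0.0094) and at least 270-fold higher in Hepatocyte than in TTF (adjusted p = 0.0002), and it fell by 4.66 ± 0.89 in iHep against Hepatocyte (adjusted p = 0.0066).

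Cyp4v3, the mouse counterpart of the human fatty acid hydroxylase CYP4V2, moved the other way in iHep cells. It was at -5.33, -4.98, -3.85 and -3.73 on the iHep arrays, at 1.13, 0.55, 0.86 and 1.43 on the Hepatocyte arrays, and at 0.22, -0.48 and -0.22 on the TTF arrays. Every iHep array was below every other array of these groups. The gene fell by 4.31 ± 0.42 in iHep against TTF (adjusted p = 0.00011) and by 5.46 ± 0.39 in iHep against Hepatocyte (adjusted p = 3.2e-05), and was not called in Hepatocyte against TTF (1.15 ± 0.42, adjusted p = 0.1), except with iHep kept out of the fit (adjusted p = 0.039).

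Cyp4f genes hydroxylate leukotrienes and fatty acids. Of 6 measured, 1 was called lower in iHep against TTF, 1 higher in Hepatocyte against TTF and 3 lower in iHep against Hepatocyte. Cyp4f14, a leukotriene hydroxylase of liver, was at -4.52, -5.13, -5.35 and -6.34 on the iHep arrays, at -3.22, -1.96, -3.35 and -3.63 on the Hepatocyte arrays, and at -4.63, -6.4 and -6.15 on the TTF arrays, so the Hepatocyte arrays lay above both other groups. It rose by 2.69 ± 0.57 in Hepatocyte against TTF (adjusted p = 0.012) and fell by 2.29 ± 0.53 in iHep against Hepatocyte (adjusted p = 0.016). Its call against TTF was lost without TTF replicate 2 or TTF replicate 3 (adjusted p = 0.059 to 0.061). Leaving out Hepatocyte replicates 1 and 2 ended both calls (2.24, adjusted p = 0.08 against TTF, and -1.85, adjusted p = 0.099 in iHep against Hepatocyte), and leaving out iHep replicates 3 and 4 ended the second (-1.78, adjusted p = 0.082).

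Cyp4f16 fell by 1.39 ± 0.37 in iHep against TTF (adjusted p = 0.028) and by 1.53 ± 0.34 in iHep against Hepatocyte (adjusted p = 0.014). The first call was lost without any 1 TTF array, iHep replicate 3 or iHep replicate 4 (adjusted p = 0.055 to 0.11). Both Cyp4f16 calls ended without iHep replicates 3 and 4 (-1.02, adjusted p = 0.15 against TTF, and -1.16, adjusted p = 0.082 against Hepatocyte), and the second without Hepatocyte replicates 1 and 2 (-1.08, adjusted p = 0.1). Cyp4f18, known from neutrophils, fell by 1.2 ± 0.36 in iHep against Hepatocyte (adjusted p = 0.048), a call lost without any 1 TTF array, Hepatocyte replicate 1, Hepatocyte replicate 2, or iHep replicate 1, 3 or 4 (adjusted p = 0.059 to 0.11). The Cyp4f18 call also ended with quantile normalization, the median shift, a trended spread or TTF kept out of the fit (adjusted p = 0.052 to 0.11). It was -0.61 (adjusted p = 0.28) without Hepatocyte replicates 1 and 2 and -1.01 (adjusted p = 0.19) without iHep replicates 3 and 4. Cyp4f13 (0.73 ± 0.3 in Hepatocyte against TTF, adjusted p = 0.14), Cyp4f15 and the skin ceramide enzyme gene Cyp4f39 were not called.

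Among the 4 Cyp4a genes, fatty acid hydroxylases controlled by the receptor PPAR-alpha, Cyp4a14 was called higher in Hepatocyte against TTF. It was at -4.76, -4.49, -5.69 and -5.76 on the Hepatocyte arrays and at -6.26, -7.57 and -6.43 on the TTF arrays (1.58 ± 0.44, adjusted p = 0.04). The call was lost without Hepatocyte replicate 1, Hepatocyte replicate 2, TTF replicate 2, TTF replicate 3, iHep replicate 1 or iHep replicate 3 (adjusted p = 0.051 to 0.17), with quantile normalization, the median shift or iHep kept out of the fit (adjusted p = 0.055 to 0.1), and without Hepatocyte replicates 1 and 2 (1.03, adjusted p = 0.26). Cyp4a14 passed in iHep against Hepatocyte without Hepatocyte replicates 3 and 4 (-1.76, adjusted p = 0.034). Cyp4a10, Cyp4a29 and Cyp4a31 were not called.

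The Cyp2j genes epoxidise arachidonic acid. Of 5 measured, 2 were called lower in iHep against TTF and 4 lower in iHep against Hepatocyte, with none called in Hepatocyte against TTF. Cyp2j9, known from brain, was at -6.16, -7.3, -5.74 and -7.22 on the iHep arrays, with replicates 2 and 4 not above the limit, at -3.92, -4.69, -3.63 and -4.22 on the Hepatocyte arrays, and at -1.55, -4.25 and -4.03 on the TTF arrays. All iHep arrays were below all others. It fell by 3.33 ± 0.64 in iHep against TTF (adjusted p = 0.006) and by 2.49 ± 0.6 in iHep against Hepatocyte (adjusted p = 0.019), and the call against Hepatocyte was lost without Hepatocyte replicate 1, Hepatocyte replicate 3 or iHep replicate 4 (adjusted p = 0.05 to 0.051). That call also ended without Hepatocyte replicates 1 and 2 (-2.68, adjusted p = 0.072), Hepatocyte replicates 3 and 4 (-2.3, adjusted p = 0.091) or iHep replicates 1 and 2 (-2.36, adjusted p = 0.054).

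Cyp2j6 was at -6.59, -7.4, -3.2 and -3.8 on the iHep arrays, at -1.81, -1.98, -2.24 and -2.34 on the Hepatocyte arrays, and at -1.77, -2.51 and -2.08 on the TTF arrays. It was not above the limit on iHep replicate 2, so falls that include that array are not exact sizes. The iHep arrays were below the Hepatocyte and TTF arrays, replicates 1 and 2 by far the most. It fell by 3.13 ± 0.87 in iHep against TTF (adjusted p = 0.036) and by 3.16 ± 0.81 in iHep against Hepatocyte (adjusted p = 0.025). The sizes depended on the iHep pair. Without iHep replicates 1 and 2 the differences were -1.38 (adjusted p = 0.016) against TTF and -1.41 (adjusted p = 0.013) against Hepatocyte, and without iHep replicates 3 and 4 they were -4.88 (adjusted p = 9.3e-05) and -4.9 (adjusted p = 0.00012). The first call was lost without Hepatocyte replicate 1, 2 or 4, any 1 TTF array, iHep replicate 1 or iHep replicate 2 (adjusted p = 0.051 to 0.11), and the second without Hepatocyte replicate 1, 2 or 3, or iHep replicate 1 (adjusted p = 0.05 to 0.063). The first was also lost with the brightest probe (-3.21, adjusted p = 0.11), and the second without Hepatocyte replicates 1 and 2 (-2.96, adjusted p = 0.14) or 3 and 4 (-3.36, adjusted p = 0.077). With the third group kept out of the fit neither passed (adjusted p = 0.1 and 0.058).

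Cyp2j13 fell by 1.65 ± 0.36 (adjusted p = 0.013) and Cyp2j5, a form of kidney and liver, by 2.0 ± 0.56 (adjusted p = 0.036) in iHep against Hepatocyte. Of the iHep arrays, Cyp2j13 was above the limit on 3 and Cyp2j5 on 2. The 2 probes of Cyp2j5 gave -3.2 and -0.8 there, and the 3 probes of Cyp2j13 ranged over -3.27 to -0.24. The Cyp2j5 call was lost without Hepatocyte replicate 1, Hepatocyte replicate 2, TTF replicate 3, or iHep replicate 1, 3 or 4 (adjusted p = 0.053 to 0.089), without Hepatocyte replicates 1 and 2 (-1.11, adjusted p = 0.21) and with iHep replicates 3 and 4 left out (-1.45, adjusted p = 0.18). It also ended with the brightest probe (-0.8, adjusted p = 0.48), dim values set to the limit (-1.02, adjusted p = 0.2), the median shift (adjusted p = 0.066) or TTF kept out of the fit (adjusted p = 0.071). The Cyp2j13 call ended without Hepatocyte replicates 1 and 2 (-1.79, adjusted p = 0.051) or 3 and 4 (-1.52, adjusted p = 0.071). Cyp2j11 was not called (-1.29 ± 0.44 in iHep against Hepatocyte, adjusted p = 0.076).

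Of the remaining family 2 genes, Cyp2e1, the ethanol-oxidising form of adult liver, was above the limit only on Hepatocyte replicates 1 and 2, at -5.67 and -3.74. Hepatocyte replicates 3 and 4 were at -8.87 and -8.4, while the TTF arrays were at -9.03 to -7.98, none above the limit. Cyp2e1 was at least 1.8-fold higher in Hepatocyte than in TTF and was not called (adjusted p = 0.25), but passed without Hepatocyte replicates 3 and 4 (adjusted p = 0.0067). It was at least 1.39-fold lower in iHep than in Hepatocyte (adjusted p = 0.33), which passed without the same arrays (adjusted p = 0.012). Both Cyp2e1 bounds are approximate, because the Hepatocyte mean includes replicates 3 and 4. Cyp2f2, which oxidises naphthalene and is known from the club cells of the lung, was at -8.32, -4.39, -1.59 and -1.57 on the iHep arrays, at -1.25, 0.3, -5.58 and -5.38 on the Hepatocyte arrays, and at 0.94, 1.01 and 1.62 on the TTF arrays. It was not above the limit on iHep replicate 1, so iHep differences that include that array are not exact sizes. The iHep and Hepatocyte arrays were all below TTF and widely spread. Neither difference passed (-5.16 ± 1.78, adjusted p = 0.085 for iHep, and -4.17 ± 1.78, adjusted p = 0.15 for Hepatocyte). Without iHep replicates 3 and 4 the iHep difference was -7.54 (adjusted p = 0.026). Of 4 lung epithelium markers measured, 1 (Sftpd, 10.12 ± 0.93, adjusted p = 6.9e-05) was called higher in iHep against TTF (6.86% of all genes) and none was called in Hepatocyte against TTF. Their summed intensity was at a log2 level of -0.34 to 3.25 on the iHep arrays, -3.54 to -3.12 on the Hepatocyte arrays and -5.12 to -3.15 on the TTF arrays; their part in the Cyp2f2 and Cyp4b1 levels was not tested.

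Cyp2r1, which carries out the first hydroxylation of vitamin D, was at -3.51, -3.53, -3.65 and -4.46 on the iHep arrays, at -2.37, -1.87, -2.07 and -2.53 on the Hepatocyte arrays, and at -3.06, -4.22 and -4.23 on the TTF arrays. The Hepatocyte arrays were above both other groups. It rose by 1.63 ± 0.37 in Hepatocyte against TTF (adjusted p = 0.016) and fell by 1.58 ± 0.34 in iHep against Hepatocyte (adjusted p = 0.012). Its call against TTF was lost without TTF replicate 2 or TTF replicate 3 (adjusted p = 0.079 to 0.083) and with the median shift (1.23, adjusted p = 0.062). Both calls ended without Hepatocyte replicates 1 and 2 (1.54, adjusted p = 0.096, and -1.49, adjusted p = 0.073), and the second without iHep replicates 3 and 4 (-1.31, adjusted p = 0.053). Cyp2g1, an olfactory form, and Cyp2w1 were not called.

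Of the 11 genes of the remaining families, which serve steroid, sterol, retinoid and vitamin D metabolism apart from Cyp20a1, whose substrate is unknown, 1 was called higher in iHep against TTF, 1 higher and 1 lower in Hepatocyte against TTF, and 1 higher and 1 lower in iHep against Hepatocyte. Cyp39a1, an oxysterol hydroxylase of the liver, was at 2.53, 1.53, -0.07 and 0.76 on the iHep arrays, at -0.06, -2.94, -3.12 and -2.72 on the Hepatocyte arrays, and at -2.19, -2.06 and -1.91 on the TTF arrays. The iHep arrays were above the TTF arrays, and Hepatocyte replicate 1 reached the lowest of them. It rose by 3.24 ± 0.76 in iHep against TTF (adjusted p = 0.017), a call lost without any 1 TTF array (adjusted p = 0.053 to 0.059), and by 3.4 ± 0.71 in iHep against Hepatocyte (adjusted p = 0.01). The first call also ended without iHep replicates 1 and 2 (2.4, adjusted p = 0.073), and the second without Hepatocyte replicates 3 and 4 (2.69, adjusted p = 0.074).

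Cyp27b1, which makes the active form of vitamin D, was at -5.29, -5.25, -5.79 and -4.76 on the iHep arrays, at -4.1, -4.08, -4.02 and -3.93 on the Hepatocyte arrays, and at -5.05, -4.89 and -5.75 on the TTF arrays. Every Hepatocyte array was above all iHep and TTF arrays. It rose by 1.19 ± 0.3 in Hepatocyte against TTF (adjusted p = 0.026) and fell by 1.24 ± 0.28 in iHep against Hepatocyte (adjusted p = 0.014). Its call against TTF was lost without Hepatocyte replicate 1, 2 or 4, or TTF replicate 3 (adjusted p = 0.054 to 0.13). Shifting each array by its median gave a difference of 0.8 against TTF (adjusted p = 0.12), and the call ended with no shift, quantile normalization or the brightest probe as well (adjusted p = 0.083 to 0.16). The call in iHep against Hepatocyte ended with no shift and with quantile normalization (adjusted p = 0.052 and 0.051). Without Hepatocyte replicates 1 and 2 the differences were 1.25 (adjusted p = 0.1) and -1.3 (adjusted p = 0.064), and without replicates 3 and 4 they were 1.14 (adjusted p = 0.083) and -1.19 (adjusted p = 0.069). Cyp20a1 fell by 1.69 ± 0.39 in Hepatocyte against TTF (adjusted p = 0.018), a call lost without any 1 TTF array (adjusted p = 0.052 to 0.066) or without Hepatocyte replicates 1 and 2 (-1.25, adjusted p = 0.097). In iHep against TTF it differed by -1.27 ± 0.39 (adjusted p = 0.058), and passed without iHep replicate 2 (-1.51, adjusted p = 0.024) or Hepatocyte replicate 2 (adjusted p = 0.027), without iHep replicates 1 and 2 (-1.51, adjusted p = 0.036), and with the median shift, a trended spread or Hepatocyte kept out of the fit (adjusted p = 0.047 to 0.049).

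The retinoic acid hydroxylase genes Cyp26a1 and Cyp26b1 differed between the pairs of arrays. Cyp26a1 was at -6.45, -7.51, -7.08 and -8.79 on the iHep arrays, with replicates 2 and 4 not above the limit. It was at -1.28 and -2.73 on Hepatocyte replicates 1 and 2 and at -6.71 and -6.09 on replicates 3 and 4, and was above the limit on no TTF array (-7.69 to -7.52). It was at least 9.5-fold higher in Hepatocyte than in TTF and was not called (adjusted p = 0.076). It passed with no shift (adjusted p = 0.049), without Hepatocyte replicate 3 (adjusted p = 0.026) and without Hepatocyte replicates 3 and 4 (adjusted p = 0.00086), and did not without Hepatocyte replicates 1 and 2 (adjusted p = 0.3). In iHep against Hepatocyte it was -3.26 ± 1.07 (adjusted p = 0.065), and passed without Hepatocyte replicate 3 (-4.09, adjusted p = 0.026) or Hepatocyte replicate 4 (-3.89, adjusted p = 0.045), with no shift (adjusted p = 0.042) and with quantile normalization (adjusted p = 0.049). That difference was -5.46 (adjusted p = 0.0011) without Hepatocyte replicates 3 and 4 and -1.06 (adjusted p = 0.31) without Hepatocyte replicates 1 and 2. The retinoic acid receptor gene Rarb was higher in Hepatocyte against TTF (4.96 ± 0.67, adjusted p = 0.001).

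Cyp26b1 was at -5.33, -4.72, -0.77 and -0.62 on the iHep arrays and at 3.47, -1.88 and -1.72 on the TTF arrays, and was not called. The steroidogenic genes Cyp11a1, Cyp11b2, Cyp17a1 and Cyp21a1, the vitamin D hydroxylase Cyp24a1 and the brain cholesterol hydroxylase Cyp46a1 were not called in any comparison. Among their differences were 0.88 ± 0.37 for Cyp11a1 and 0.64 ± 0.44 for Cyp24a1 in iHep against TTF (adjusted p = 0.16 and 0.41), and 0.89 ± 0.51 for Cyp46a1 and 0.79 ± 0.38 for Cyp17a1 in Hepatocyte against TTF (adjusted p = 0.29 and 0.2). Cyp24a1 passed in iHep against TTF with dim values set to the limit (1.03, adjusted p = 0.036) and with iHep replicates 1 and 2 left out (1.2, adjusted p = 0.033). Of 4 steroidogenic markers measured, 1 (Hsd3b1) was called higher in iHep against TTF, beside 6.86% of all genes.

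The mixed transduced TTF array has no replicate, so its genes are described by size: at least 2 log2 units from the mean of the other group and outside that group's range. Against TTF, 12 P450 genes (17.6%) were higher and 5 (7.35%) lower by this rule, beside 6.49% and 3.67% of all genes. With dim values set to the limit, 11 were higher and 4 lower, beside 5.91% and 3.19% of all genes. Of the 12 higher genes 8 were above the limit on at least 1 TTF array, and among these Cyp2s1 (6.91), Cyp2c66 (5.52), Cyp2d26 (4.39), Cyp1b1 (3.66) and Cyp2c40 (3.16) were furthest above TTF. For the other 4 the TTF arrays give a bound: Cyp3a13 was at least 18.7-fold, Cyp3a16 at least 10.0-fold, Cyp4b1 at least 9.25-fold and Cyp2d34 at least 2.78-fold higher on the mixed array. The 5 lower genes were Cyp2f2 (-2.87), Cyp4v3 (-2.76), Cyp2j6 (-2.75), Cyp2c23 (-2.45) and Cyp2a22, which was not above the limit on the mixed array and was at least 2.99-fold lower there. The bounds of Cyp2d34 and Cyp2a22 lie below the size limit. At a limit of 1 log2 unit, 22 (32.4%) were higher and 11 (16.2%) lower, beside 11.7% and 12.7% of all genes. Against iHep, 9 genes (13.2%) were lower and 0 higher, beside 1.23% lower and 2.77% higher of all genes. Cyp2d34 (-3.78), Cyp2b10 (-3.45), Cyp2d26 (-3.19), Cyp2b9 (-2.98) and Cyp2c23 (-2.98) lay furthest below the iHep mean, and Cyp2s1, Cyp2d12, Cyp2d10 and Cyp2d9 made up the rest. At 1 log2 unit 3 genes (4.41%) were higher and 17 (25.0%) lower than iHep, beside 6.18% and 6.92% of all genes.

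Cyp3a16 was at -4.19 on the mixed array, above all 4 iHep arrays (-7.53 to -4.72). The summed intensity of the 8 fibroblast markers was at a log2 level of 6.17 on the mixed array, 0.46 to 4.44 on the iHep arrays and 7.8 to 8.31 on the TTF arrays. The mixed array also differs from the iHep arrays in the enrichment of epithelial cells, and the part of cell mixture in these levels was not tested. Without iHep replicate 1 or iHep replicate 2 the 9 genes outside the iHep values became 14.

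**Figure D4:**
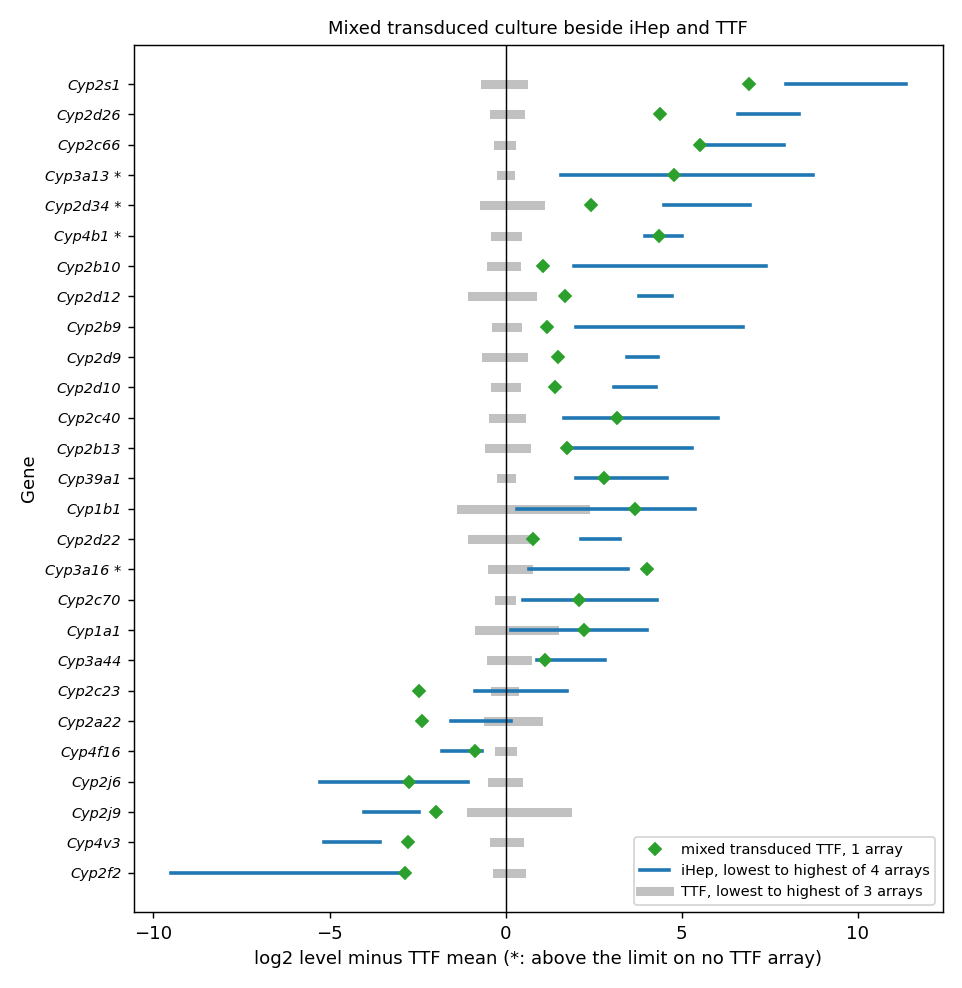
Log2 level minus the TTF mean for 27 P450 genes called in iHep against TTF or past the size limit on the mixed array, shown as the mixed transduced TTF array (diamond), the range of 4 iHep arrays (line) and the range of 3 TTF arrays (grey band); an asterisk marks genes above the limit on no TTF array, whose distance from TTF is not measured. The mixed array lies below the iHep range for the Cyp2d genes, Cyp2b10, Cyp2b9, Cyp2b13, Cyp2s1, Cyp2c66, Cyp2c23 and Cyp2a22. It lies above that range for Cyp3a16, Cyp4v3 and Cyp2j9.

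On the MEF array, which also has no replicate, 4 P450 genes (5.88%) were higher and 3 (4.41%) lower than TTF by the same size rule, beside 4.02% and 2.04% of all genes. With dim values set to the limit, 3 were higher and 2 lower, beside 3.56% and 1.69% of all genes. Cyp2s1 (4.84) and Cyp1b1 (4.13) were higher, and Cyp2f2 (-7.56) and Cyp2c23 (-3.73) were lower. The other genes have bounds: Cyp26a1 was at least 18.1-fold and Cyp4b1 at least 2.95-fold higher than in TTF, where neither was above the limit, and Cyp1a1, not above the limit on the MEF array, was at least 2.5-fold lower. The bounds of Cyp4b1 and Cyp1a1 lie below the size limit of the rule. At 1 log2 unit 7 genes (10.3%) were higher and 8 (11.8%) lower, beside 8.54% and 7.91% of all genes. Of the Cyp2d, Cyp2b and Cyp3a genes none differed from TTF by the rule of 2 log2 units. The MEF array also differs from the TTF arrays in sex-linked RNA, with Xist at 1.08 and Eif2s3y at -9.24. Sex therefore cannot be told apart from embryonic origin in this comparison.

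Genes that serve the P450 enzymes were examined as a list. Of 18 measured genes for electron donors and heme synthesis or breakdown, 1 was higher and 1 lower in iHep against TTF, 1 higher and 0 lower in Hepatocyte against TTF, and 1 higher and 3 lower in iHep against Hepatocyte, with median differences of 0.05, 0.0 and -0.07. Of all genes, 6.86% were higher and 6.52% lower, 7.47% and 4.91%, and 6.25% and 7.5% in the same comparisons. In a list this short a single call is not read as a trait of the list. Cpox, an enzyme of heme synthesis, rose by 1.14 ± 0.29 (adjusted p = 0.025) and the cytochrome b5 reductase gene Cyb5r1 fell by 2.56 ± 0.36 (adjusted p = 0.00089) in iHep against TTF. Cyb5a, which encodes cytochrome b5, rose by 1.49 ± 0.35 in Hepatocyte against TTF (adjusted p = 0.019) and fell by 1.37 ± 0.33 in iHep against Hepatocyte (adjusted p = 0.019). Alas1, the first enzyme of heme synthesis, was not called (0.42 ± 0.36 in iHep against TTF, adjusted p = 0.53).

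Of 24 measured regulators of P450 genes, 5 were higher and 2 lower in iHep against TTF, 7 higher and 1 lower in Hepatocyte against TTF, and 3 higher and 5 lower in iHep against Hepatocyte. The shares of all genes in these comparisons were 6.86% higher and 6.52% lower, 7.47% and 4.91%, and 6.25% and 7.5%. Hnf4a, a nuclear receptor of hepatocytes, rose by 4.95 ± 0.61 in iHep against TTF (adjusted p = 0.00043) and by 4.26 ± 0.61 in Hepatocyte against TTF (adjusted p = 0.0014). Foxa2 rose by 7.96 ± 0.34 in iHep against TTF (adjusted p = 5.9e-07) and by 11.53 ± 0.34 in Hepatocyte against TTF (adjusted p = 3.3e-08), and fell by 3.57 ± 0.31 in iHep against Hepatocyte (adjusted p = 8.2e-05). Nr1h4, the bile acid receptor gene, rose by 4.54 ± 0.97 in iHep against TTF (adjusted p = 0.01) and by 7.84 ± 0.97 in Hepatocyte against TTF (adjusted p = 0.00059). Nr1i3, the gene of the constitutive androstane receptor that controls Cyp2b10, was not called in iHep against TTF (0.58 ± 1.17, adjusted p = 0.81) or in Hepatocyte against TTF (2.87 ± 1.17, adjusted p = 0.14).

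Among 13 measured genes of the aryl hydrocarbon receptor and Nrf2 responses, 4 were higher in iHep against TTF, 2 in Hepatocyte against TTF and 2 in iHep against Hepatocyte, and none was lower. The shares of all genes in these comparisons were 6.86% higher and 6.52% lower, 7.47% and 4.91%, and 6.25% and 7.5%. Aldh3a1, an aldehyde dehydrogenase gene, rose by 9.24 ± 0.88 in iHep against TTF (adjusted p = 8.9e-05) and by 9.91 ± 0.82 in iHep against Hepatocyte (adjusted p = 6.2e-05). In the second comparison Cyp1a1 was called lower, and in the first Cyp1a1 was not called (1.63 ± 1.59, adjusted p = 0.59). Nqo1, another gene of both responses, was not called (-1.73 ± 1.18 in iHep against TTF, adjusted p = 0.41).

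Cell type markers also moved with the groups. Of all genes, 6.86% were called higher and 6.52% lower in iHep against TTF, and 7.47% and 4.91% in Hepatocyte against TTF. Of 8 hepatocyte markers measured, 6 were higher in iHep against TTF and 6 in Hepatocyte against TTF, and their summed intensity was at a log2 level of 7.18 to 9.46 on the iHep arrays and 6.95 to 8.82 on the Hepatocyte arrays, against -1.78 to -0.04 on the TTF arrays. Ahsg was the one hepatocyte marker above the limit on no TTF array. Of 8 fibroblast markers, 7 were lower in iHep against TTF and 1 in Hepatocyte against TTF, and their summed level was 0.46 to 4.44 on the iHep arrays, 3.06 to 7.55 on the Hepatocyte arrays and 7.8 to 8.31 on the TTF arrays. Macrophage markers had 2 of 3 genes higher in iHep against TTF, with a summed level of 3.73 to 5.04 on the iHep arrays, 1.48 to 3.99 on the Hepatocyte arrays and -0.6 to -0.4 on the TTF arrays. In Hepatocyte against TTF 3 of 3 macrophage, 4 of 5 endothelial and 3 of 4 stellate cell markers were also higher, and the summed stellate level was -6.14 to -4.33 on the iHep arrays, -0.51 to 0.94 on the Hepatocyte arrays and -5.66 to -4.7 on the TTF arrays. The macrophage marker Adgre1 was above the limit on no iHep or TTF array. Endothelial markers had 1 of 5 genes higher in iHep against TTF, biliary markers 2 of 4 in iHep and 1 of 4 in Hepatocyte, kidney tubule markers 1 of 4 in each, keratinocyte markers 0 of 4 in iHep and 1 of 4 in Hepatocyte, and stellate markers 0 of 4 in iHep. The part of these cells in the P450 levels was not tested.

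Over all 53 of the 68 genes with a RefSeq promoter, motif counts in the 100 bases before the start were set beside those of all 32851 promoters of the table. TATAAA was found for 14 genes (26.4%, against 5.56% of all promoters), CAAAGT for 12 (22.6%, against 4.46%), TTGCNNAA for 9 (17.0%, against 3.43%) and GCGTG for 9 (17.0%, against 15.6%), each on either strand. The units differ: a P450 gene counted if any of its promoters matched (60 promoters for the 53 genes), while the other share is of single promoters. Near copies such as Cyp2a4 and Cyp2a5 counted as separate genes, so the matches are not independent. These are matches of letters only, and no binding was measured.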

How the data were processed

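RNA of 13 mouse cell samples in 5 groups was measured on 1-colour Agilent arrays. The deposited values are intensity values on a linear scale, 1 per probe and array; per the submitters' processing notes the authors extracted them with Agilent Feature Extraction 10.5.1.1, with background handling and normalization not given in the sources used here. Of 45018 features, 33653 had 1 gene symbol in the platform annotation, 56 several and 11309 none; 33517 were matched to RefSeq by gene ID and 0 were renamed. Each intensity was put on the log2 scale, the 75th percentile of its array was subtracted, and a gene's level is the mean of its probes. The number of arrays limits the precision.

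Groups were compared with limma 3.58.1 (R 4.3.3), with 1 mean for each of the iHep, Hepatocyte and TTF groups in a single fit over all 19087 genes, Benjamini-Hochberg adjustment over all genes, and a call at an adjusted p under 0.05 and a log2 difference of at least 1. Every adjusted p in the text is from that fit or, where arrays were left out or a setting changed, from the same fit on the remaining values; all ± values of differences are standard errors. The limit of measurement on an array was 3 times the lowest intensity among 101 neighbouring features in the deposited table. A gene was above it if any of its probes was. The limma step was tested on simulated data. The mixed transduced TTF and MEF arrays stayed out of the fit and were described by a difference of at least 2 log2 units from a group's mean, outside its range.

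The members, the lists and the genes always named were chosen with earlier results of these data known. Named genes were up to 12 called genes with the largest change in each comparison, given on every array, and a set of 28 genes of known role, of which 26 were measured; for single arrays, the 5 furthest in each direction; and for partner lists, up to 4 called genes with the largest change. Others were named after their values were seen. Alternatives were other scalings (array median, quantile, none), a filter and a floor for dim genes, the brightest probe of a gene, a trended spread, only the groups compared, the replicate number as a block, and leaving out each array or pair of arrays. Leaving out pairs of Hepatocyte arrays was added after the data were seen. Promoters are from RefSeq (GRCm38.p6); 53 of 68 genes matched. Tables and figures used Python 3.11.15, pandas 2.3.3, NumPy 2.4.6 and matplotlib 3.10.9.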

Additional observations from a re-analysis of the deposited data

Results flagged for a closer look

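Of 94 groups of 4 arrays tested over the named P450 genes, 5 held an array far from the other 3, where chance gives about 1 in 20. Cyp2b10 was at -6.15 on Hepatocyte replicate 2, with the other Hepatocyte arrays at -5.44 to -5.37. Cyp2d34 was at -3.75 on iHep replicate 1, below the other iHep arrays at -1.64 to -1.32, and this array alone overlaps the Hepatocyte range. Cyp2r1 was at -4.46 on iHep replicate 4, with the others at -3.65 to -3.51. Cyp39a1 was at -0.06 on Hepatocyte replicate 1, above the others at -3.12 to -2.72. Cyp4f18 was at -3.08 on iHep replicate 2, with the others at -3.91 to -3.78.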

How the results depend on the processing

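Counts of called P450 genes moved most when arrays were left out. Leaving out each array in turn gave 12 to 17 genes higher and 2 to 4 lower in iHep against TTF, 10 to 22 higher and 0 to 2 lower in Hepatocyte against TTF, and 6 to 11 higher and 7 to 14 lower in iHep against Hepatocyte. Without Hepatocyte replicates 1 and 2 there were 7 higher and 1 lower (not one of the original 2) in Hepatocyte against TTF and 2 lower in iHep against Hepatocyte, and without Hepatocyte replicates 3 and 4 there was 1 lower in Hepatocyte against TTF. Samples share only a replicate number (correlations of same-numbered deviations were -0.056 to 0.111), and with the replicate number as a block the counts were 16 higher and 2 lower in iHep against TTF, 20 higher and 0 lower in Hepatocyte against TTF, and 9 higher and 14 lower in iHep against Hepatocyte. With a limit of 1 log2 unit the single arrays gave 33 genes for mixed against TTF, 20 for mixed against iHep and 15 for MEF against TTF (22 and 11, 3 and 17, and 7 and 8 higher and lower). Leaving out each array gave 17 to 19, 9 to 14 and 7 to 9. Of 2605 values of named genes under alternatives, 2264 kept direction and call, 235 lost the call, 41 gained it and 65 changed sign, all of the last for genes not called. The 2264 include genes that were not called and stayed so. The share of calls that were lost is therefore larger than 235 of 2605. In iHep against TTF, the ranges over arrays left out were -0.23 to 0.35 for Cyp17a1, -0.18 to 0.61 for Cyp26a1, -0.31 to 0.13 for Cyp27b1, -0.15 to 0.44 for Cyp2r1 and -0.04 to 0.62 for Cyp4a14. With quantile normalization Cyp17a1 was at -0.05, Cyp26a1 at -0.28 and Cyp2r1 at -0.1. With the median shift Cyp17a1 was at -0.12, Cyp2r1 at -0.11 and Cyp4f13 at -0.01, and with dim values set to the limit Cyp27b1 was at 0.01. Without iHep replicates 1 and 2 Cyp17a1 was at -0.32, Cyp26a1 at -0.32, Cyp2r1 at -0.22 and Cyp46a1 at -0.16, and without iHep replicates 3 and 4 Cyp4f13 was at -0.11. In Hepatocyte against TTF, the ranges were -0.15 to 0.45 for Cyp11a1, -1.09 to 1.58 for Cyp26b1, -0.16 to 0.2 for Cyp2j6, -0.87 to 0.15 for Cyp39a1 and -0.11 to 1.28 for Cyp3a11. Cyp11a1 was at -0.29 with the median shift, -0.01 with the replicate block and -0.03 without Hepatocyte replicates 1 and 2. Cyp2j6 was at -0.03 with no shift, -0.19 with quantile normalization, -0.37 with the median shift, -0.17 with the block and -0.17 without Hepatocyte replicates 1 and 2. Cyp3a11 was at -0.08 with quantile normalization, -0.0 with the median shift and -0.13 without Hepatocyte replicates 3 and 4, where Cyp26b1 was at 0.68 and Cyp39a1 at 0.56; Cyp39a1 was at 0.0 with the block. In iHep against Hepatocyte, the ranges were -1.08 to 0.16 for Cyp2c29, -1.86 to 0.46 for Cyp2f2 and -0.7 to 0.02 for Cyp46a1. Without Hepatocyte replicates 1 and 2 Cyp20a1 was at -0.02, Cyp2c29 at 0.87, Cyp2e1 at 0.44 and Cyp2f2 at 1.52. Without iHep replicates 1 and 2 Cyp1b1 was at 0.17 and Cyp2f2 at 1.4, without iHep replicates 3 and 4 Cyp24a1 was at -0.35, Cyp2b10 at -0.08, Cyp2c29 at 0.75 and Cyp46a1 at 0.32, and with quantile normalization Cyp24a1 was at -0.01. The cause was not tested. Cyp26a1 and Cyp2e1 were above the limit on no TTF array, and Cyp2e1 on no iHep array, so these fitted values are not measured sizes. Signal over background limits the dim genes: 33 of 68 were above the limit of measurement on some arrays only, and 8 on no TTF array.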
